A study of Mus musculus with 23 samples.

Results

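The miR-297, miR-466, miR-467 and miR-669 families were followed in retina from mice, over 23 samples, with stem-loop RT-qPCR. The members were every assay whose name starts with mir-297, mir-466, mir-467 or mir-669, whatever the letter, arm or assay number, which gave 18 of the 522 assays in the table. They comprise 3 miR-297 assays, 6 miR-466 assays, 8 miR-467 assays and 1 miR-669 assay. Each value is a quantification cycle (Cq), the PCR cycle at which the fluorescence of an assay crosses its threshold. A lower Cq stands for more template, and 1 cycle is close to a doubling. An assay was counted as detected at Cq 32 or lower. Assays differ in priming and amplification efficiency, so the Cq of one assay was compared between samples and not with the level of another assay.

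The samples were fresh retina from mice of mixed background and fall into 2 profiling sets, and wild-type (WT) and double-knockout (DKO) mice were profiled in both. The first set held 3 WT samples, 3 DKO samples carrying Chx10Cre, floxed Rb and a null p107 gene, 3 DicKO samples titled as floxed for Dicer1, and 4 DKO_DicKO samples carrying all of these alleles. The second set held 3 WT, 3 DKO and 4 DKO_P53KO samples, and its labels give no further alleles. Chx10Cre expresses Cre recombinase in retinal progenitor cells, so cells outside that lineage keep their floxed genes. The related proteins Rb and p107 restrain cell division, p53 is a stress-activated tumour suppressor, and Dicer1 is the enzyme that cuts miRNA hairpins into mature miRNAs. No Cre is named for the DicKO samples, and the extent of Dicer1 loss was not measured. Ages and litters are not stated, and nothing says that the samples of a group came from separate animals, so the p-values measure the spread between samples only. In whole retina, fewer cells of a type and less RNA per cell cannot be told apart.

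The families belong to one of the largest miRNA clusters of rodents, which lies in an intron of Sfmbt2, a Polycomb-group gene. The cluster grew by duplication of a short hairpin unit, so neighbouring hairpins give mature miRNAs that differ at few positions and share runs of alternating U and G or of alternating C and A. Sfmbt2 is imprinted and expressed from the paternal allele in the early embryo and in the placenta, where the cluster is abundant. In the names used here, a number sign marks the minor arm of a hairpin, -3p and -5p name the arms directly, and a TM number separates a pair of commercial assays that both carry the name miR-467a.

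In the mouse RefSeq annotation, 82 miRNA genes carry one of the family names, and 72 of them lie inside Sfmbt2. The other 10 genes lie elsewhere in the genome. Counted along Sfmbt2, the 72 genes place miR-467c at position 13, miR-467b at 25, miR-466b-3 at 51, miR-467e at 53, miR-467d at 55, miR-466a at 56, miR-297c at 57, miR-297b at 60, miR-466d at 61 and miR-466h at 67. Several members cannot be tied to a single gene. The miR-467a name covers 10 genes, miR-669a covers 12, miR-466c covers 3, and miR-297a covers 4, of which 1 lies outside Sfmbt2. A value for one of these is therefore a sum over copies.

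The mature sequences of the members themselves were not used here. To show the character of the families, the mature sequences of 8 relatives outside Sfmbt2 were read from RefSeq (build GRCm38.p6). None of the 8 has an assay among the members, and they support no value below. They are written 5′ to 3′ with the seed, bases 2 to 8, in capitals, because the seed is the stretch that pairs with target transcripts.
mmu-miR-466i-3p: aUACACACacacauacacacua
mmu-miR-466j: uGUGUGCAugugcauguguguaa
mmu-miR-466k: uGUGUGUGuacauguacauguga
mmu-miR-466q: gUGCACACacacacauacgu
mmu-miR-467f: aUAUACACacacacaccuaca
mmu-miR-467g: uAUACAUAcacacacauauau
mmu-miR-467h: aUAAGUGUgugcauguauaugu
mmu-miR-669n: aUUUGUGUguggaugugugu
The miR-466i-3p sequence lies at chr13:17747552-17747573 on the plus strand, and miR-467f lies at chr11:69635419-69635439 on the minus strand. The dinucleotides UG, GU, CA and AC made up between 50.0% and 78.95% of the dinucleotides of these 8 sequences, with a median of 69.9%, against a median of 28.6% over all 1679 mature sequences in the RefSeq table. The 8 relatives carry 8 different seeds. Whether the members share seeds was not examined. Stem-loop primers read the last bases of a miRNA, and cross-reaction between such near-copies was not tested.

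Of the 18 members, 8 were detected in no sample. These are miR-297b, miR-297c, miR-466a-3p, miR-466b-3-3p, miR-466c-5p, miR-466d-5p, miR-466h and miR-467e#. They make up 44.4% of the members, against 153 of 522 assays, or 29.3%, over the whole table. Of the miR-297 assays 1 of 3 was read in any sample, of miR-466 1 of 6, of miR-467 7 of 8 and of miR-669 the 1 assay present. Assays for neighbours in the cluster differed in this respect. Those for miR-467e and miR-467d, at positions 53 and 55, were detected. Those for miR-466a-3p, miR-297c and miR-297b, at positions 56, 57 and 60, were not. Whether the undetected assays can read their miRNA was not tested, so this is no statement about the hairpins.

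**Figure D1:**
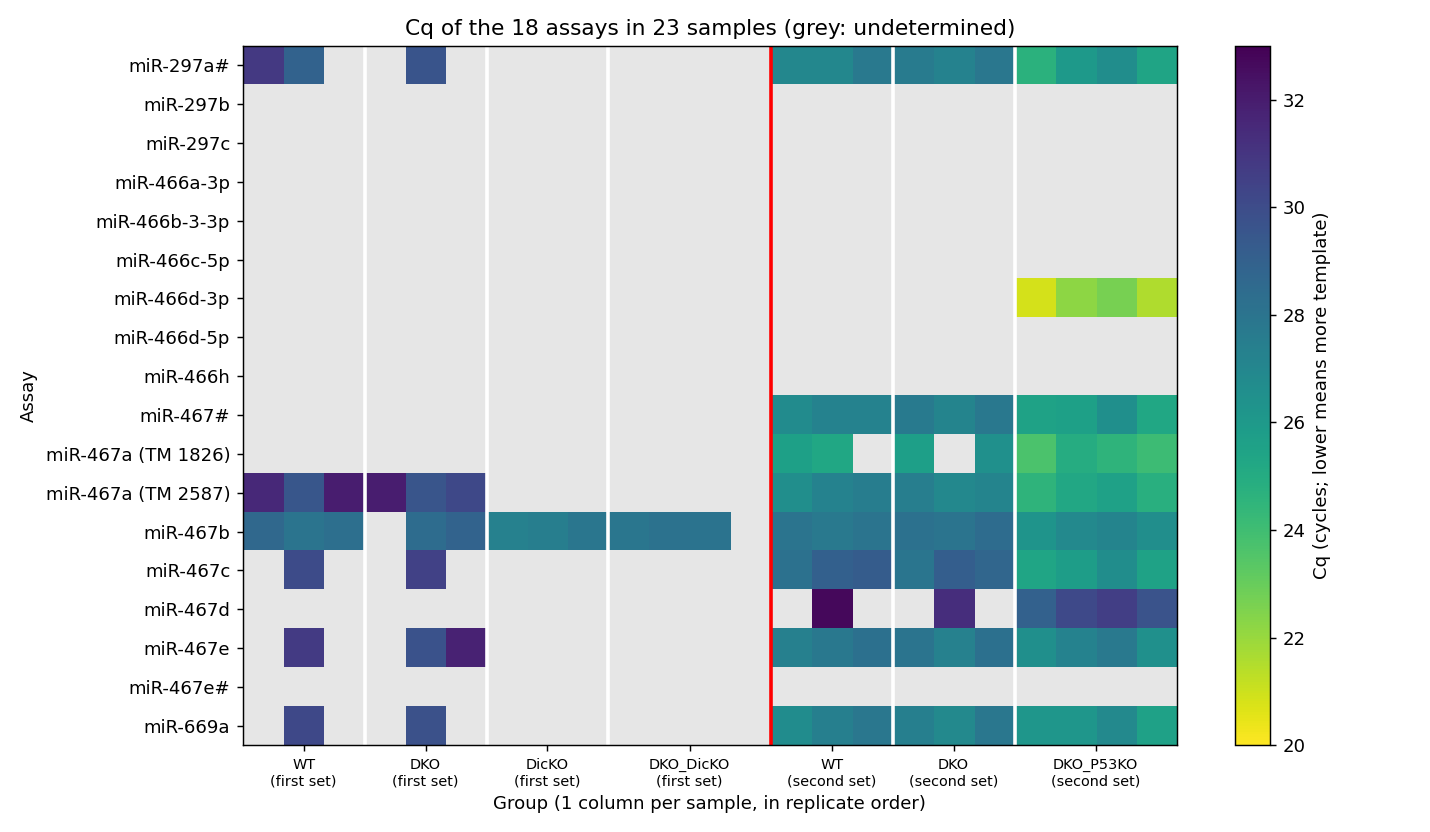
Cq of the 18 member assays (rows, by family) in each of the 23 retina samples (columns, by group and replicate). Lighter, yellower cells are earlier cycles and grey cells are undetermined wells; the second set (right of the red line) is filled for 7 assays throughout while the first set (left) is mostly grey.

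The number of detected members separated the sets. In the first set the 3 WT samples had 3, 6 and 2 detected members, and the 3 DKO samples had 1, 6 and 3. In the second set the WT samples had 8, 8 and 7, each DKO sample had 8, and each DKO_P53KO sample had 10. The 2 sets did not overlap. The same samples differed in their total number of detected assays, which ranged from 91 to 228 in the first set and from 307 to 350 in the second. Across the table, 284 assays were detected in all samples of the second set and 61 in all samples of the first, and among the members these numbers were 7 and 0. The sets differed in this way within WT and within DKO alike, so levels were compared within a set.

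**Figure D2:**
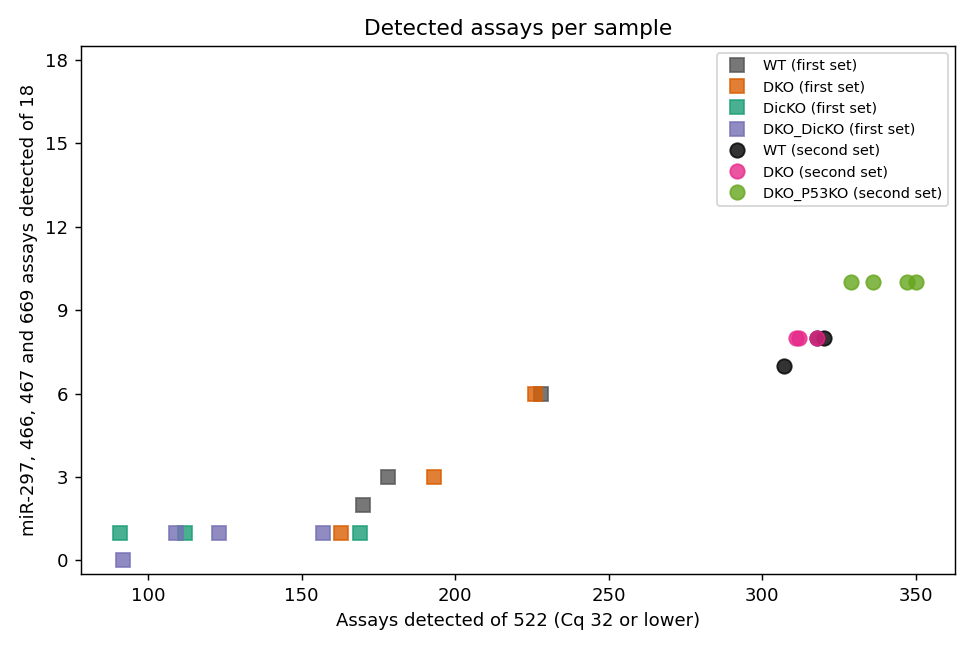
Number of the 18 member assays detected (Cq 32 or lower) in each sample (points, coloured by group; squares for the first set, circles for the second). The horizontal axis is the number of the 522 assays detected in that sample; all DKO_P53KO samples sit at 10, the other second-set samples at 7 or 8, and the first set between 0 and 6.

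The miR-467# assay illustrates the gap between the sets. It had no Cq in any of the 13 first-set samples, whereas in the second set its Cq was 26.75, 27.25 and 27.24 in WT, 27.71, 27.13 and 27.81 in DKO, and 25.53, 25.60, 26.50 and 25.24 in DKO_P53KO. It is 1 of 31 assays with no Cq in the first set although every second-set sample read them at Cq 30 or below. An empty first-set well is thus not evidence that the miRNA was absent.

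For tests, the log2 relative quantity was an assay's distance in cycles under a scaling mean, taken in the same sample over those assays that every sample of the fit detected. Undetected wells and lower values were raised to a floor, which is the highest scaled value that Cq 32 takes in any sample of the fit. The groups were compared with limma, with Benjamini-Hochberg adjustment over all assays tested and a threshold of 0.05. An assay was tested where every sample of at least 1 compared group detected it. A member that entered through its higher group alone was therefore favoured to come out higher there. The scaling matters in the second set because the 284 scaling assays themselves came up earlier with loss of p53. Their mean Cq was 24.01 ± 0.46 (SD, n = 3) in WT and 24.39 ± 0.31 (SD, n = 3) in DKO, compared with 22.76 ± 0.46 (SD, n = 4) in DKO_P53KO. The common shift was 1.63 cycles against DKO and 1.25 cycles against WT, and a scaled change is relative to it.

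The question of the second set is which miRNAs change when p53 is lost as well as Rb and p107. Against DKO, 10 members were tested, 2 were called higher (miR-466d-3p and miR-467c) and 0 lower. Over the 330 assays tested, 19.7% were called higher and 21.2% lower. The member counts cannot be read against these shares, because miR-466d-3p, miR-467d and miR-467a (TM 1826) entered through DKO_P53KO alone. Of the 7 members detected in every second-set sample, 1 was called higher against DKO, miR-467c. Among the members, 1 of 10 was lower at an unadjusted p under 0.05. Against WT, the called members were miR-466d-3p, miR-467c and miR-467a (TM 2587), 3 of 10, where 21.8% of assays were called higher, and 2 of these 3 belong to the 7 members detected throughout. Here too 0 members were called lower, against 25.2% of assays, and 0 members were lower at an unadjusted p under 0.05. Both comparisons use the same 4 DKO_P53KO samples, so they are not independent. The share called among all assays detected in every second-set sample is not given here. The counts over the 7 members therefore have no matched background.

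One member, miR-466d-3p, was read in DKO_P53KO alone and derives from the 3′ arm of the hairpin at position 61. It had no Cq in any WT or DKO sample of the second set and none in the first set. In DKO_P53KO its Cq was 20.82, 22.22, 22.68 and 21.54. The groups therefore did not overlap, and the DKO_P53KO values lay between 9.32 and 11.2 cycles under the detection limit. With the WT and DKO samples at the floor, the change was at least 8.34 on the log2 scale against either group. It entered the test only through DKO_P53KO and every other value is the floor, so the call is no separate support and its p-value is not given. Depth was not limiting for this assay in DKO_P53KO, but its undetermined wells elsewhere give only a bound. The pattern of no Cq in all 6 WT and DKO samples and detection in all 4 DKO_P53KO samples was shared by 7 of the 522 assays, and in 2 of these 7 every DKO_P53KO Cq was under 25. The reverse pattern occurred in 0 assays. The assay for the other arm of the same hairpin, miR-466d-5p, was undetermined in all 23 samples, as were those for the neighbouring miR-297b and miR-466h.

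The miR-467c product, from the hairpin at position 13, rose in both comparisons. Its Cq was 28.16, 28.99 and 29.21 in WT, 27.97, 29.09 and 28.73 in DKO, and 25.36, 25.78, 26.62 and 25.52 in DKO_P53KO. On the scaled log2 scale the WT samples were at −4.57, −5.05 and −4.71, the DKO samples at −3.37, −5.06 and −4.19, and the DKO_P53KO samples at −2.62, −3.48, −3.23 and −2.91. All 4 DKO_P53KO samples lay above all 3 WT samples, while DKO replicate 1 lay within the DKO_P53KO range. The share of all assays that separate from WT in this way on the scaled scale is not given here. By cycles earlier in raw Cq, miR-467c ranked 38 of 288 assays against WT and 50 of 288 against DKO. The scaled rise was 1.72 (SE 0.39, limma adjusted p = 0.00582) against WT and 1.15 (SE 0.39, limma adjusted p = 0.0395) against DKO. The call against DKO was lost when DKO replicate 2, 3 or DKO_P53KO replicate 1 or 4 was left out (limma adjusted p = 0.139, 0.0893, 0.0792 and 0.0707), and when only the compared groups were fitted (limma adjusted p = 0.0850).

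Over the detected wells, both miR-467a assays had a lower mean raw Cq in DKO_P53KO than in WT or DKO. Their scaled changes differed in how stable they were. The TM 2587 assay had a Cq of 26.56, 27.26 and 27.48 in WT, 27.46, 26.93 and 27.14 in DKO, and 24.54, 25.22, 25.56 and 24.80 in DKO_P53KO. The raw Cq of DKO_P53KO did not overlap that of WT or DKO, which overlapped each other. Of 288 assays detected throughout the compared groups, 161 were likewise earlier in every DKO_P53KO sample against DKO, and 134 against WT. Scaled, the change was 0.82 (SE 0.27, limma adjusted p = 0.0352) against WT and 0.52 (SE 0.27, limma adjusted p = 0.154) against DKO. The call against WT was lost with median scaling (limma adjusted p = 0.0545), with only the compared groups (0.0655), and without WT replicate 1, 2 or 3 (0.0750, 0.121 and 0.0715) or DKO_P53KO replicate 1 or 4 (0.0595 and 0.0640). The TM 1826 assay had a Cq of 25.62 and 25.28 in WT and 25.67 and 26.49 in DKO, with 1 undetermined well in each of these groups, and 23.67, 24.93, 24.55 and 24.09 in DKO_P53KO. It is 1 of 7 assays with such a missing well although the other WT and DKO samples had a median Cq under 28. Its fitted change against DKO was 1.92 (SE 1.73, limma adjusted p = 0.387) with the missing well at the floor and −0.04 with the missing well left out. The difference therefore rests on the empty wells.

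The miR-467d assay, from the hairpin at position 55, was detected in each DKO_P53KO sample, at Cq 28.98, 30.12, 30.57 and 29.69, and in 1 other sample, a DKO sample at Cq 31.28. A WT sample gave Cq 32.74, past the detection limit. Its scaled values in DKO_P53KO lay near the floor, and the fitted change was 0.38 (SE 0.27, limma adjusted p = 0.284) against DKO. With a detection limit of Cq 35, which lowers the floor, it was 2.29 (limma adjusted p = 0.0453), so the call depends on where the floor is set. The assay entered these tests only through DKO_P53KO, and 2 DKO values were the floor itself. Neither p-value therefore supports a difference.

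The other miR-467 products and miR-669a did not pass the test in either comparison. For miR-467e, the product of the hairpin at position 53, the Cq was 27.32, 27.80 and 28.18 in WT, 27.98, 27.31 and 28.20 in DKO, and 26.52, 27.24, 27.75 and 26.46 in DKO_P53KO. The raw values of the groups overlapped, and the scaled change was −0.79 (SE 0.29, limma adjusted p = 0.0549) against DKO and −0.48 (SE 0.29, limma adjusted p = 0.199) against WT. Against DKO it passed the test with median scaling (−0.83, limma adjusted p = 0.0404) and without DKO_P53KO replicate 1 or 4 (limma adjusted p = 0.0368 and 0.0428). For miR-669a, summed over 12 gene copies, the Cq was 26.68, 27.41 and 27.84 in WT, 27.37, 26.90 and 27.86 in DKO, and 26.15, 26.19, 26.88 and 25.55 in DKO_P53KO. Its scaled change was −0.45 (SE 0.27, limma adjusted p = 0.192) against DKO. For miR-467b the Cq was 27.99, 27.72 and 28.02 in WT, 28.17, 28 and 28.42 in DKO, and 26.25, 26.87, 27.11 and 26.60 in DKO_P53KO. Every DKO_P53KO well was earlier than every other well of miR-467b, by about the common shift, and the scaled change was −0.15 (SE 0.31, limma adjusted p = 0.711) against DKO. Such a raw separation was shown by 161 of 288 assays against DKO and by 134 of 288 against WT.

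The remaining 2 members are minor arms. The Cq of miR-297a# was 26.97, 26.99 and 27.74 in WT, 27.61, 27.25 and 27.87 in DKO, and 24.70, 25.97, 26.62 and 25.41 in DKO_P53KO, with a scaled change of 0.27 (SE 0.36, limma adjusted p = 0.548) against DKO. For miR-467#, whose values are given above, the scaled change was 0.21 (SE 0.24, limma adjusted p = 0.484). Both came up earlier in every DKO_P53KO well, as did 161 of 288 assays against DKO and 134 of 288 against WT. Both scaled changes were smaller than the SD of the DKO_P53KO samples, 0.73 for miR-297a# and 0.30 for miR-467#. They were larger than the SD of the DKO samples, 0.17 and 0.10 in the same order.

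**Figure D3:**
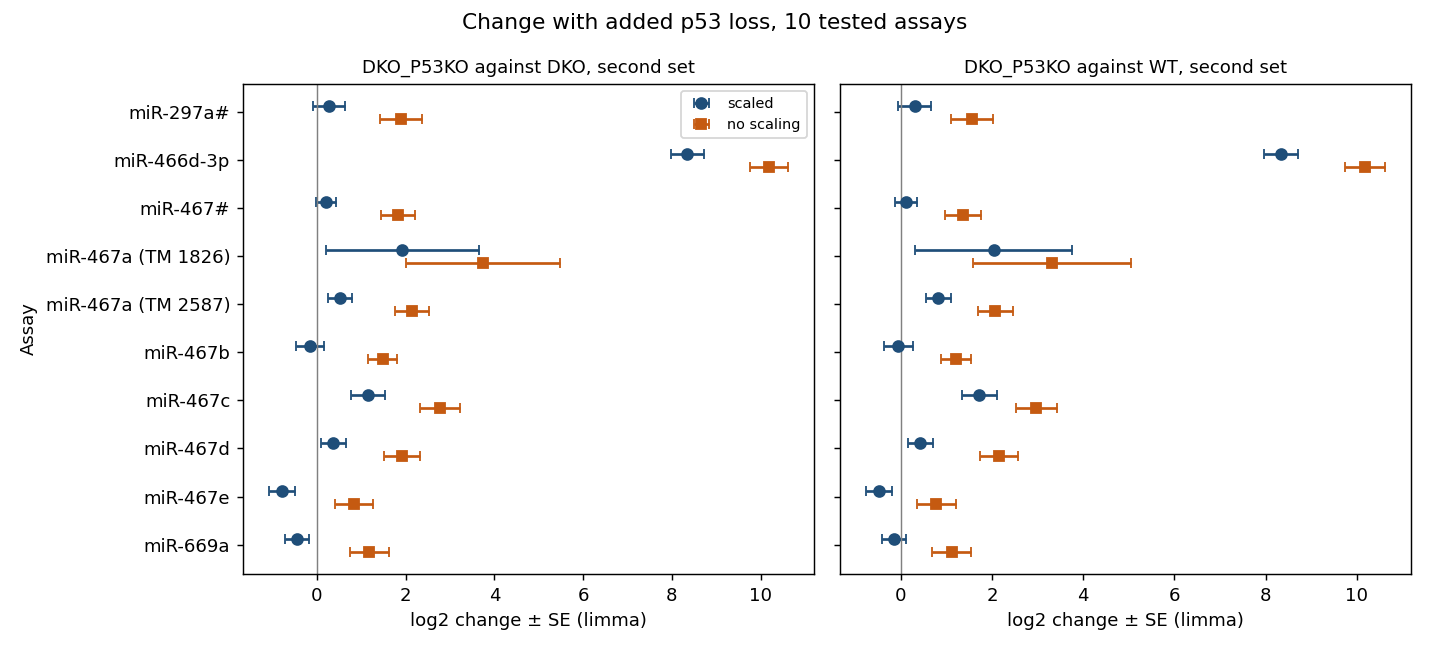
Change of each tested member in DKO_P53KO against DKO and against WT, on the log2 scale with standard errors, with scaling and without. After scaling, miR-466d-3p lies at 8.34, a value set by the floor, and miR-467c at 1.15 and 1.72. Without scaling the changes are shifted up by about the common 1.63 and 1.25 cycles.

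Without scaling, 8 of the 10 tested members were called higher against DKO and 0 lower, beside 197 higher (59.7%) and 3 lower of the 330 assays. Against WT these numbers were 7 members higher and 0 lower, beside 159 (48.2%) and 12 assays. The sign of miR-467b, miR-467e and miR-669a in both comparisons thus depends on whether the common shift is removed.

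Differences among the members do not depend on the scaling. For each second-set sample, the 7 members detected in all 10 samples were set against their own mean. The mean Cq of these 7 was 27.60 ± 0.38 (SD, n = 3) in WT, 27.76 ± 0.25 (SD, n = 3) for DKO and 26.02 ± 0.53 (SD, n = 4) in DKO_P53KO. Relative to that mean, miR-467c was at −1.19 ± 0.21 (SD, n = 3) in WT, −0.84 ± 0.69 (SD, n = 3) for DKO and 0.20 ± 0.11 (SD, n = 4) in DKO_P53KO. In contrast, miR-467e was at −0.17 ± 0.05 (SD, n = 3), −0.07 ± 0.24 (SD, n = 3) and −0.97 ± 0.13 (SD, n = 4) in the same order. DKO_P53KO did not overlap either other group for miR-467c or for miR-467e. The same held for miR-669a, which was at 0.29 ± 0.21 (SD, n = 3) in WT, 0.38 ± 0.24 (SD, n = 3) for DKO and −0.18 ± 0.29 (SD, n = 4) in DKO_P53KO. The miR-467a (TM 2587) assay overlapped DKO and not WT. These deviations sum to 0 within a sample, so they describe unequal change and were not tested.

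The contrast between miR-467c and miR-467e can also be given in raw cycles. Among the members detected throughout the second set, these rose most and fell most relative to their common mean in DKO_P53KO. The separation of this pair therefore restates the values above for the most extreme pair and is no separate support. The share of other pairs that separate in this way was not counted. The Cq of miR-467e minus that of miR-467c was −1.03 ± 0.18 (SD, n = 3) in WT, −0.76 ± 0.91 (SD, n = 3) for DKO and 1.17 ± 0.22 (SD, n = 4) in DKO_P53KO. It ranged from −1.77 to 0.0069 over the 6 WT and DKO samples and from 0.94 to 1.46 in DKO_P53KO. The 2 hairpins lie at positions 13 and 53 of the cluster.

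**Figure D4:**
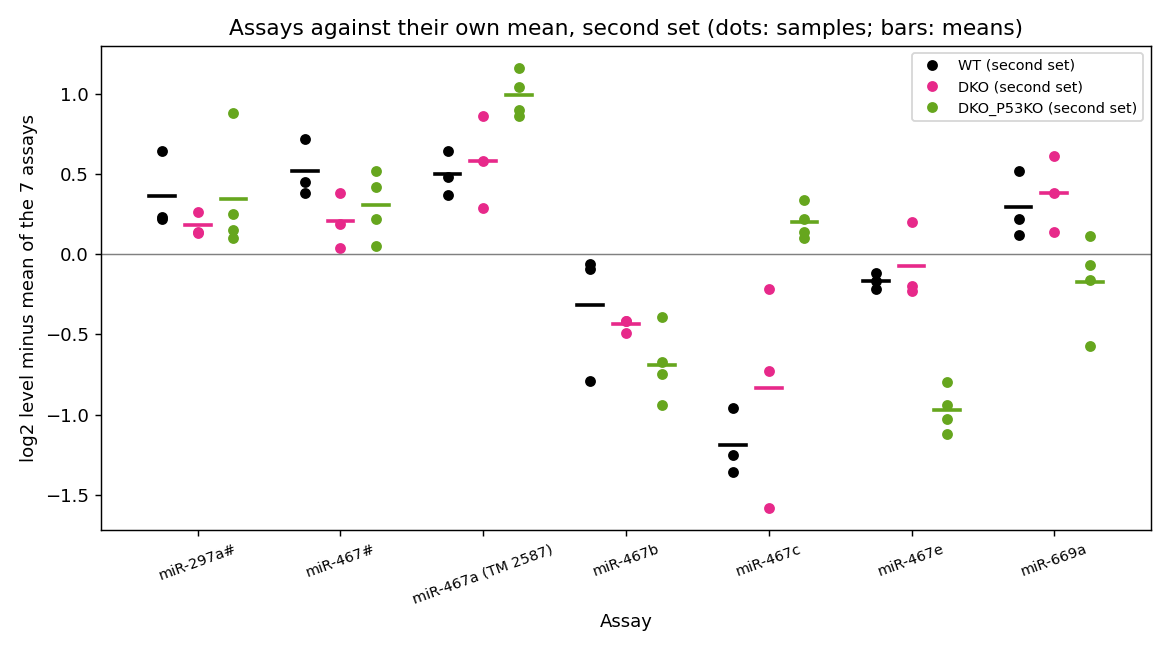
Level of 7 member assays in each second-set sample relative to the mean of the 7 in that sample (log2, vertical axis), by group. Dots are samples and short lines are group means; miR-467c moves from −1.19 in WT to 0.20 in DKO_P53KO and miR-467e from −0.17 to −0.97.

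Within DKO_P53KO the scaled values of the members kept an order between replicates. Replicate 2 had the lowest scaled value for 10 of the 10 members, whereas it was the lowest for 19.0% of the 315 assays detected in the group. Replicate 1 was the highest for 8 of 10, against 30.2% of the 315 assays. The order depends on the scaling, since the scaling mean was earliest in replicate 2, at Cq 22.30, and latest in replicate 3, at 23.39. In raw Cq, replicate 3 was the latest for 9 of 10 members and replicate 1 the earliest for 7. The matching shares over all assays are not given for raw Cq, so these raw counts have no background.

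The DKO samples alone did not differ detectably from WT in these families. In the second set 7 members were tested and 0 were called by limma, beside 0.647% of 309 assays, and 0 members had an unadjusted p under 0.05. Their scaled changes ran from −0.10 to 0.57. In the first set 1 member was tested and 0 were called, beside 17.3% of 133 assays, and in a fit over both sets 2 were tested and 0 called, beside 13.8% of 167 assays. The difference of the DKO effect between the sets was tested for 5 members, with 0 called beside 12.5% of 255 assays. All second-set values of these 5 stood at the floor of that fit, so it cannot compare the sets for them. In each of these 3 fits 0 members had an unadjusted p under 0.05. In the first-set fit every WT and DKO value of the tested member, miR-467b, stood at the floor, which fixed its change at 0. In the fit over both sets most member values stood at the floor too. The fits with first-set samples therefore carry little information on the members.

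The first set asks what the loss of Dicer1 does with and without Rb and p107. Over its WT and DKO samples 6 members were detected in at least 1 sample. Of these, miR-297a#, miR-467a (TM 2587), miR-467c, miR-467e and miR-669a were detected in no DicKO or DKO_DicKO sample, a pattern shown by 73 of the 248 assays detected in any WT or DKO sample. The best covered of them, miR-467a (TM 2587), had a Cq of 31.52, 29.53 and 31.97 in WT and of 31.94, 29.57 and 30.18 in DKO. These values lie close to the detection limit. The 61 scaling assays came up at a mean Cq of 24.48 ± 1.04 (SD, n = 3) in WT and 27.35 ± 1.84 (SD, n = 3) in DicKO, so the common shift, WT minus DicKO, was −2.87 cycles. Moving the 16 detected values of these 5 members by the common shift of their genotype would put 15 of them past Cq 32. A fall of these 5 members beyond the common shift was therefore not detectable at this depth.

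The exception was miR-467b, from the hairpin at position 25. Its Cq was 28.61, 27.98 and 28.27 in WT, undetermined, 28.40 and 28.87 in DKO, 27.28, 27.46 and 27.92 in DicKO, and 27.88, 28.11, 28.07 and undetermined in DKO_DicKO. All 3 DicKO values were earlier than all 3 WT values. Over the 11 samples with a Cq the range was 1.60 cycles, while the mean Cq of the scaling assays ranged over 5.78 cycles, from 23.28 to 29.06. The SD of 0.46 cycles was smaller for 1 of the 104 assays with a Cq in at least 11 of the 13 samples, and the median SD of those 104 assays was 1.88.

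Against the common shift, miR-467b was at least 2.73 higher on the log2 scale in DicKO than in WT (SE 0.79, limma adjusted p = 0.0247), with all WT samples at the floor. It was the 1 member tested, and 7.52% of 133 assays were called higher. Without the floor the difference was 3.60. In raw cycles miR-467b was 0.74 cycles earlier in DicKO, which did not pass the test without scaling (limma adjusted p = 0.563). Among 85 assays detected in all samples of both groups, 9 were earlier on average in DicKO, and miR-467b ranked 2 by the number of cycles. In 4 of the 85, namely miR-467b, miR-673, miR-678 and miR-764-5p, every DicKO value was earlier than every WT value. The median of the 85 was −2.89 cycles, that is, later in DicKO. The call was lost without scaling, with a detection limit of Cq 35 (limma adjusted p = 0.0596) and without any 1 of the 3 WT samples (limma adjusted p = 0.0577, 0.0632 and 0.0560) or DicKO replicate 1 or 3 (limma adjusted p = 0.0807 and 0.0716).

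**Figure D5:**
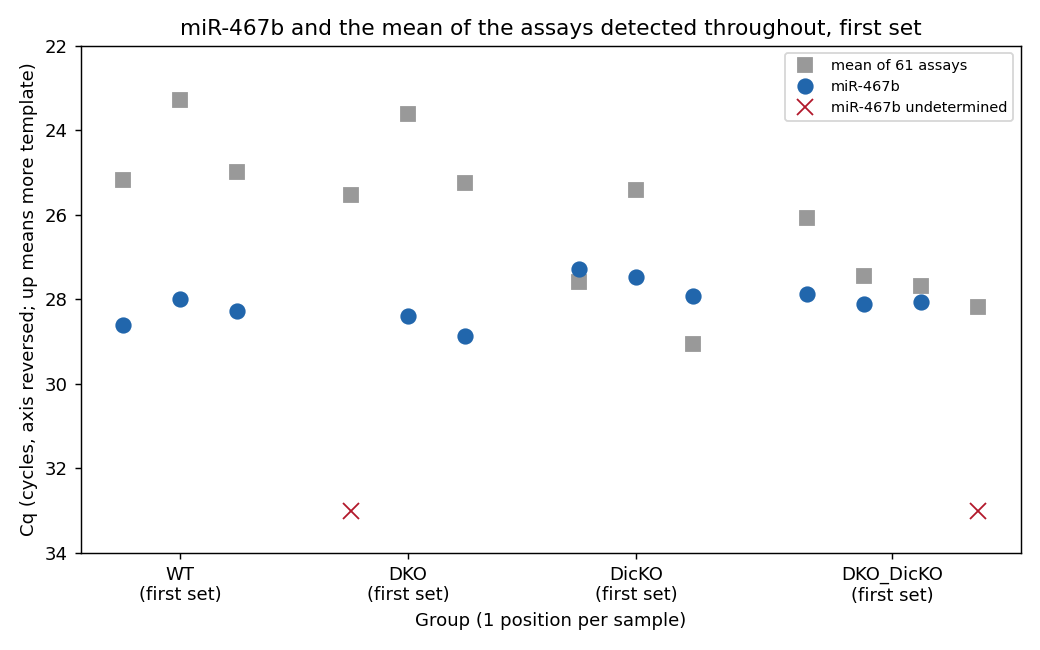
Cq of miR-467b and mean Cq of the 61 scaling assays in each first-set sample, by group, on a reversed axis. The scaling mean moves over 5.78 cycles between samples while the 11 miR-467b values stay within 1.60 cycles; the 2 undetermined wells are marked.

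With Dicer1 floxed, the loss of Rb and p107 gave no call in miR-467b. The scaled change of DKO_DicKO against DicKO was −1.24 (SE 0.73, limma adjusted p = 0.455), with 0 of 1 member called beside 0% of 99 assays. The difference of the Dicer1 effect with and without Rb and p107 also gave 0 of 1 member called, beside 5.93% of 135 assays. All WT and DKO values stood at the floor in that fit, so this difference is the same −1.24. Neither comparison reached an unadjusted p under 0.05. The 2 sets also differed in miR-467b relative to miR-467a (TM 2587), which was near the detection limit in the first. The Cq of miR-467b minus that of miR-467a (TM 2587) was −2.72 ± 1.09 (SD, n = 3) in WT of the first set and 0.81 ± 0.54 (SD, n = 3) in WT of the second. Whether the first-set miR-467b signal comes from the miRNA was not tested.

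Other assay groups give the setting of these values. Retina and photoreceptor miRNAs were detected in all second-set samples, and in DKO_P53KO against WT all 4 were lower, with a median scaled log2 change of −5.85. Against DKO 1 of 4 was lower, with a median of −3.31. Their summed scaled log2 level was 7.70 to 7.87 in WT, 4.39 to 5.85 in DKO and −2.60 to 5.18 in DKO_P53KO. The DKO sums thus lay under those of WT, and the DKO_P53KO range overlapped that of DKO. Whether the reading of miR-466d-3p in DKO_P53KO alone is related to these marker levels was not tested. The neuronal miR-124a assay (TM446) was undetermined in every group, and 5 of the 6 neuron assays were detected in all second-set samples. In DKO_P53KO 3 of the 5 tested neuron assays were lower against WT, with a median scaled log2 change of −2.04, and 2 of 5 against DKO, with a median of −0.85. Among assays typical of lens, ciliary body and pigment epithelium 2 of 3 were lower in each comparison, with medians of −1.19 against WT and −1.23 against DKO. White blood cell and microglia assays were higher in 3 of 5 tested against WT and in 1 of 5 against DKO, with summed levels of 2.69 to 3.22 in WT, 2.94 to 3.80 in DKO and 3.38 to 4.59 in DKO_P53KO. Vessel assays were higher in 2 of 4 against DKO and in 0 against WT. Among muscle assays 1 of 4 tested was lower in each comparison, and the red blood cell assay could not be tested. The part of these shifts in the member values was not tested.

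Other miRNA clusters were counted the same way. Of 22 assays for the embryonic miR-290 and miR-302 clusters 0 could be tested in the second set. Of 23 assays for the X-linked testis-type rodent miRNAs 1 was tested against DKO and was not called, and 2 were tested against WT, of which 1 was higher. In the imprinted Dlk1-Dio3 cluster 46 of 63 assays were tested against DKO, of which 2 were higher and 21 lower, with a median scaled log2 change of −0.76. Against WT 45 were tested, of which 4 were higher and 18 lower, with a median of −0.79. Over all 330 assays tested, 19.7% were called higher and 21.2% lower against DKO, and 21.8% and 25.2% against WT. Whether the cluster counts differ from those of the members was not tested.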

How the data were processed

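The authors deposited 1 table of Cq values, named as not normalized, for 522 assays in 23 retina samples. Per the labels' protocols, total RNA was extracted with microRNeasy, reverse transcribed with 522 stem-loop primers and pre-amplified for 14 cycles. The instrument, threshold and software are not given in the sources used here. In all, 10 unnamed columns were not used. Groups came from the labels. Members and lists were chosen with earlier results of these data known.

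From the Cq values, log2 relative quantities were computed within each set, with 61 scaling assays for the first and 284 for the second, and fitted over all groups of a set in R 4.3.3 with lmFit, contrasts.fit and eBayes of limma 3.58.1 (two-sided). The fit was tested on simulated data. Values are described for every member with a Cq in any sample. Gene names, gene order and sequences came from RefSeq tables (GRCm38.p6), where 0 of the 18 member sequences were matched. The number of samples and the detection limit set the precision. Alternatives were no scaling, other scalings, detection limits and treatments of undetected wells, the compared groups alone, the replicate number as a block, and each sample left out in turn.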

Additional observations from a re-analysis of the deposited data

Results flagged for a closer look

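The number of detected members in the DKO_DicKO group stood out: 3 samples had 1 detected member, miR-467b, and replicate 4 had 0. The gap of that sample to the others made up the whole range of the group (a ratio of 1.0, past Dixon's critical value for 4 samples). The 3 tied counts fix that ratio. The group's total number of detected assays ranged from 92 to 157. In all, 12 such groups of values were examined, and chance flags about 1 in 20 of groups without ties.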

How the results depend on the processing

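The call of miR-467c against WT held under every alternative. The change of miR-466d-3p, which is set by the floor, ran from 6.34 at Cq 30 to 11.37 at Cq 35. It has no value with undetected values left missing, and its call says nothing of stability. Without scaling the members called in DKO_P53KO were 8 against DKO and 7 against WT, and the sign turned, past the threshold, for miR-467b (1.48 against DKO, 1.20 against WT) and miR-669a (1.18 against DKO). Against DKO, 1 member was called with undetected values left missing, with assays detected in every sample, or with the compared groups alone, and 1 to 3 with 1 sample left out. In DicKO against WT 0 members were called without scaling or at Cq 35, and 0 to 1 with 1 sample left out. In DKO_DicKO against DKO 0 members could be tested, or 0 to 1 called with 1 sample left out, and in the difference of the DKO effect between sets 0 to 1. At Cq 30, detected members averaged 7.67 in DKO of the second set and 9.50 in DKO_P53KO. With the replicate number as a block, the call of miR-467a (TM 2587) against WT was lost (0.79, limma adjusted p = 0.0522), and 2 members were called against each of DKO and WT. Same-numbered samples of different groups correlated from −0.13 to 0.53 in the second set (median 0.0714) and from −0.34 to 0.64 in the first (median 0.144). Differently numbered samples had medians of −0.0607 and −0.0385, over overlapping ranges. Whether the numbers pair the samples cannot be told from these values.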
